A study of Mus musculus with 4 samples.

Results

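The BTG and TOB genes Btg1, Btg2, Btg3, Tob1 and Tob2 encode small antiproliferative proteins, and the regions bound by Runx3 around them in splenic CD4+ DC are described here. Btg1 was picked from the number of Runx3 peaks at its locus, and the other 4 genes are its relatives, so the number of peaks at Btg1 is a description of how it was selected on these data and not a finding. Runx3 ChIP-seq was measured in freshly sorted CD11chiMHCII+CD4+ DC of about 15 mice, labelled C57BL/6 for 3 samples and C57BL/7 for 1 input sample, without any treatment. There were 2 Runx3 IP samples, made with an in-house polyclonal antibody, and 2 input samples of whole cell extract chromatin, and the age of the mice is not given in the sources used here. The authors called peaks once, on the pooled samples, so that a peak has a position and a MACS2 score but no value per replicate, and neither an error between replicates nor a test could be computed for any value. No immunoprecipitate of Runx3-deficient cells was analysed here. The identity of the cells could not be checked against markers, since a list of peaks holds no expression values.

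BTG and TOB proteins share a conserved N-terminal domain with which they bind the deadenylases of the CCR4-NOT complex, and by bringing this complex to mRNA they speed the shortening of poly(A) tails and slow cell growth. Btg1 and Btg2 are best known in lymphocytes, where they help to keep resting cells quiescent, and Btg2 is also an early response gene and a target of p53. Btg3 is known as a partner of the cell cycle factor E2F1, and Tob1 and Tob2 also bind the poly(A)-binding protein. Runx3 is a transcription factor that binds DNA together with Cbfb, and its recognition sequence contains the hexamer TGTGGT.

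The members were the 5 genes with their GENCODE M1 models on mm9. Btg1 lies on the plus strand of chromosome 10 from 96079635 to 96085447, Btg2 on the minus strand of chromosome 1 from 135971747 to 135975697, and Btg3 on the minus strand of chromosome 16 from 78360105 to 78377437. Tob1 lies on the plus strand of chromosome 11 from 94072768 to 94076809. Tob2 lies on the minus strand of chromosome 15 from 81678700 to 81689226, where 2 overlapping gene models carry this symbol and were taken as 1 gene. Peaks were assigned to a member when the peak centre lay in the gene body or at most 300 kb from it, which gave 48 of the 15121 peaks of the list, and no peak fell to more than 1 member. Each member had at least 1 such peak, as had 85.2% of all 22284 protein-coding genes.

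The sequences at the hexamer closest to the centre of selected peaks are given to show the DNA under the peaks on which the account of each gene turns. They are the strongest Btg1 peak, Btg1 peaks from its other 2 groups beyond 100 kb upstream, the peaks in the bodies of Btg2 and Tob2, a strong peak downstream of Btg2, the only Btg3 peak with the hexamer and the strongest Tob1 peak away from a TSS. Positions are on mm9, each sequence is written 5′ to 3′ on the strand of the member named, and capitals mark TGTGGT or its reverse complement.
Btg1, 246.0 kb upstream, chr10:95833511-95833636, plus strand: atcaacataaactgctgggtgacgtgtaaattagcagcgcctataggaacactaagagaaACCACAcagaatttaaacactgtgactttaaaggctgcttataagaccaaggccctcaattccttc
Btg1, 278.8 kb upstream, chr10:95800740-95800865, plus strand: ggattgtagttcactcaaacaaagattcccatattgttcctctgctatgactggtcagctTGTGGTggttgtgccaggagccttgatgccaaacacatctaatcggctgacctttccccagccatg
Btg1, 152.2 kb upstream, chr10:95927417-95927542, plus strand: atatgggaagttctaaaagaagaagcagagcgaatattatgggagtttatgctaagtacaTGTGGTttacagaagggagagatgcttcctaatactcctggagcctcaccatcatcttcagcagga
Btg2, 18.2 kb downstream of the TSS, chr1:135957403-135957528, minus strand: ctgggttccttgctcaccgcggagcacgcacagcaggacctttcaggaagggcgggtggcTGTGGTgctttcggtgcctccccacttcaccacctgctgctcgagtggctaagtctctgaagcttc
Btg2, intron, chr1:135974275-135974400, minus strand: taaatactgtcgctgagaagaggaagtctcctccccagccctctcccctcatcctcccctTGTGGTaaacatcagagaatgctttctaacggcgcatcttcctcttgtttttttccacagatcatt
Btg3, 180.6 kb upstream, chr16:78557975-78558100, minus strand: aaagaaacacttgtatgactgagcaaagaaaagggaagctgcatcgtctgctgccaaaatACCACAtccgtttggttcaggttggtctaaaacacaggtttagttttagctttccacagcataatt
Tob1, 226.7 kb upstream, chr11:93846046-93846171, plus strand: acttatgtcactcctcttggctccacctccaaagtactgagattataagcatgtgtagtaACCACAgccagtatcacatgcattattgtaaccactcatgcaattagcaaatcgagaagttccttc
Tob2, coding exon, chr15:81681934-81682059, minus strand: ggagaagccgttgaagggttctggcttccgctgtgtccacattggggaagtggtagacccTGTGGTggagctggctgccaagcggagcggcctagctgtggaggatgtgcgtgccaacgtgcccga

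At Btg1, 16 peaks lay within 300 kb, 14 of them upstream of the gene, 2 downstream and 0 inside it. All 16 peak centres were intergenic, and for the 6 farthest the nearest TSS of any annotated gene was that of a miRNA gene, AC131596.1, at least 166962 bp away. The strongest peak, from 95833313 to 95834001, was centred 246.0 kb upstream, scored 69.3 and ranked 486 in the list. Its neighbour 242.5 kb upstream scored 48.9, while the third peak of this group, 239.2 kb upstream, scored 6.94. The highest scores of the window were thus far from the gene, in a stretch of 6.75 kb. A second group of 3 peaks lay 278.8 to 285.7 kb upstream, with scores of 12.0, 5.96 and 27.6 in genomic order. A pair of weaker peaks lay 151.0 and 152.2 kb upstream and scored 11.3 and 9.16. Closer to the gene, 5 peaks with scores of 4.87 to 16.5 lay 11.1 to 30.0 kb upstream. Downstream of Btg1 only weak peaks were found, 16.4 kb from the TSS with a score of 4.73 and 74.0 kb from it with a score of 3.57.

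The peak at the Btg1 promoter, from 96079017 to 96079693, covered the TSS and was centred 280 bp upstream of it. It scored 29.5, a value that 82.4% of the list, this peak included, did not exceed, and was the third strongest of the 16. It held TGTGGT 0 times. The bases just upstream of the TSS, all within this peak, are given below because they carry TGACGT, another hexamer that was searched, which the capitals mark as its reverse complement. The stretch is 65.2% G and C. It equals the upstream part of the Btg1 promoter in RefSeq on GRCm38.p6.
Btg1, promoter, chr10:96079385-96079634, plus strand: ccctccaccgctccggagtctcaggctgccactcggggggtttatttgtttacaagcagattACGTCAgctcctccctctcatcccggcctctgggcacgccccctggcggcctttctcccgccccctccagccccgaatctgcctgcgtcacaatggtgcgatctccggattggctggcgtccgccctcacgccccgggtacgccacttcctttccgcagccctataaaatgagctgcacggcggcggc

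In RefSeq promoters, which run from 250 bp before to 50 bp after a TSS, TGTGGT was found on either strand in 16.8% of 32851 promoters and in 0 of the 6 promoters listed for the members. TGACGT was found in 7.51% of all promoters, 1 time in that of Btg1 and 2 times in that of Btg2. The promoter of Btg2 was not covered by a peak. The Btg3, Tob1 and Tob2 promoters held neither hexamer, and no peak was centred within 1 kb of a TSS of these genes.

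**Figure D1:**
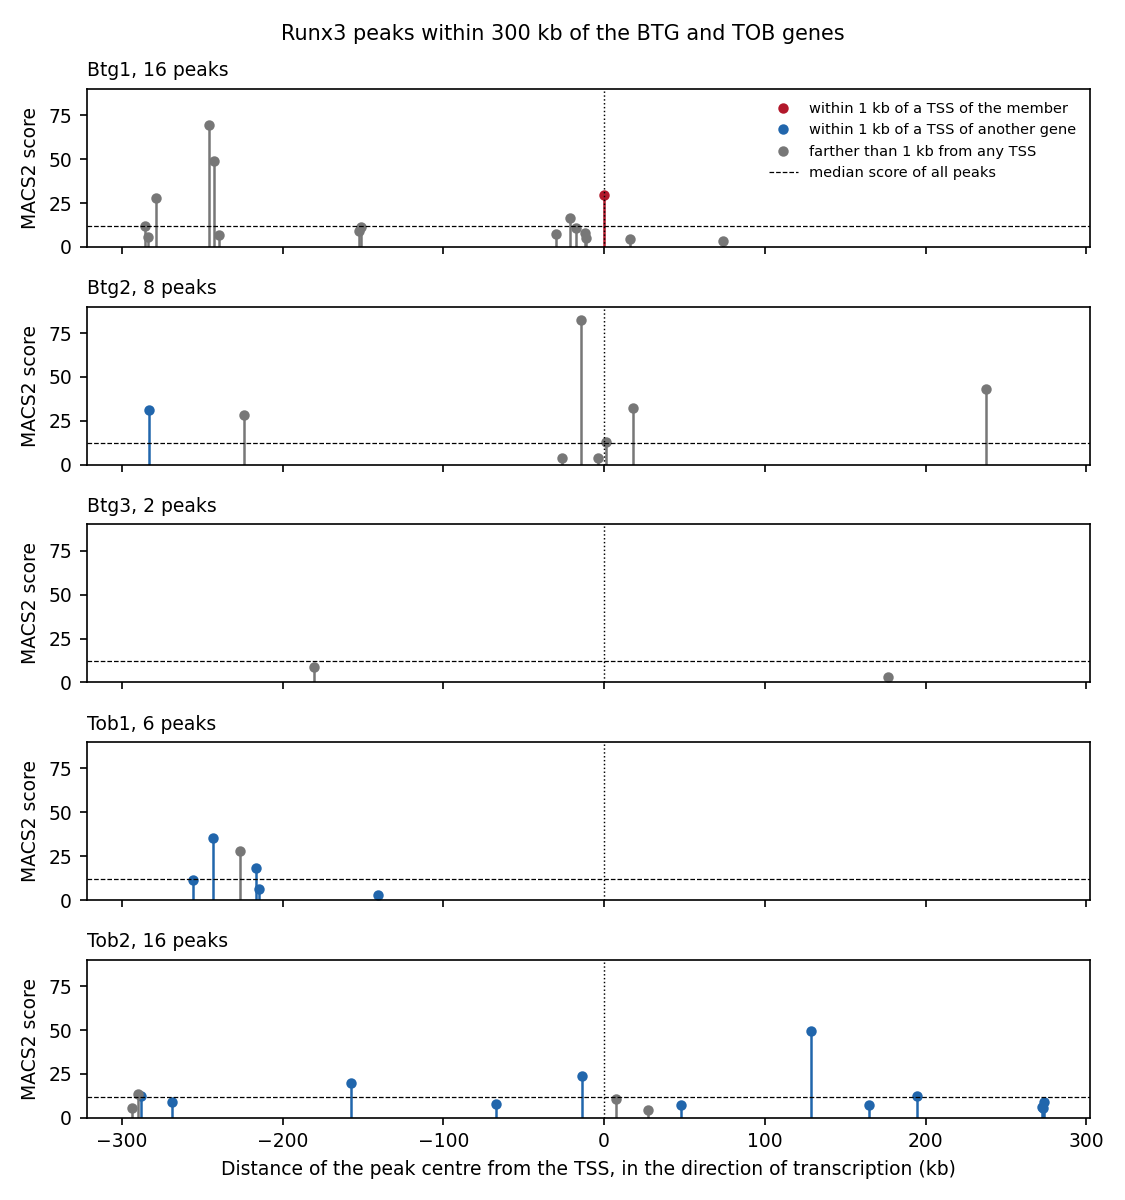
MACS2 score (vertical axis) of each Runx3 peak against the distance of its centre from the TSS of the gene in kb (horizontal axis, negative values upstream), for the 48 peaks of the 5 genes. Red marks the single peak within 1 kb of a member's own TSS, at Btg1, blue the peaks within 1 kb of a TSS of another gene, which are frequent at Tob2 and Tob1, and grey all others; the dashed line is the median score of the list, 12.1.

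At Btg2, 8 peaks lay within 300 kb. The strongest, from 135989490 to 135990865, was 1376 bp wide, lay 14.5 kb upstream of the TSS, scored 82.2 and ranked 323, which made it the strongest of the 48 peaks. It held TGTGGT 3 times. Of all protein-coding genes 2.05% had a peak with a score this high within 20 kb. A peak 18.2 kb downstream of the TSS, beyond the end of the gene, scored 32.3. The peak from 135974098 to 135974567 was centred in the intron of Btg2, 1365 bp from the TSS, and scored 12.8 with 2 copies of TGTGGT. It was followed by a weak peak 3973 bp upstream of the TSS, which scored 3.69. These 4 peaks were the ones nearest to Btg2, and each of them held TGTGGT. The other 4 peaks were nearest to other genes: Gm8618 (score 3.69), Myog, which encodes the muscle factor myogenin (28.4), Tmem183a (31.3) and Atp2b4, a calcium pump gene (43.1).

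The 2 closest relatives differed in where their strongest peak lay, 246.0 kb upstream of Btg1 and 14.5 kb upstream of Btg2. At both genes most peaks that reached the upper quartile of the list lay beyond 100 kb. Within 20 kb of the gene body Btg1 had 5 peaks and Btg2 had 4, while 6.77% of all protein-coding genes had at least 4 and the median gene had 1. In this range the highest score was 82.2 at Btg2 and 29.5 at Btg1, the latter at the promoter. Btg1 had 8 peaks within 100 kb and 8 more beyond, whereas Btg2 had 5 within 100 kb and 3 beyond. The median score was 9.96 at Btg1 and 29.9 at Btg2, beside 12.1 over the whole list. Of the Btg1 peaks 5 reached the median of the list and 4 its upper quartile of 23.2, and of the Btg2 peaks 6 and 5 did. By the nearest protein-coding TSS all 16 Btg1 peaks belonged to Btg1, but only 4 of the 8 Btg2 peaks belonged to Btg2. The 300 kb windows held TSS of 0 and 12 other protein-coding genes in the same order. A Btg1 peak could thus hardly be given to another gene, and this contrast restates gene density. The median and both counts of Btg2 include peaks nearest to Atp2b4 (43.1), Tmem183a (31.3) and Myog (28.4). These lay 237.6, 282.9 and 223.8 kb from the Btg2 TSS. With peaks of 1 pooled call these differences have no error between replicates.

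Btg3 and Tob1 had no peak nearby. At Btg3 the nearest peak centre lay 159.4 kb from the gene, and its 2 peaks within 300 kb scored 3.21 and 8.49. The stronger one, from 78557918 to 78558188, was in an intron of D16Ertd472e, and the weaker one, from 78200522 to 78200810, was intergenic. At Tob1 the nearest centre lay 140.8 kb away, and all 6 peaks were upstream of the gene. No peak within 140 kb of the gene body was found for 23.5% of all protein-coding genes, so that the absence of a nearby peak was common. Of the Tob1 peaks 5 lay within 1 kb of a TSS of another gene, 3 at Spag9, a scaffold of stress kinase signalling, and 2 at the Nme1 and Nme2 genes of nucleoside diphosphate kinases. The strongest, from 93829358 to 93829941, lay 42 bp from an Nme2 TSS and scored 35.1. The remaining one, 226.7 kb upstream of Tob1 and 11307 bp upstream of Spag9, scored 27.8. The absence of a peak means that none was called in the pooled samples.

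At Tob2, 16 peaks lay within 300 kb, as many as at Btg1. A number of 16 or more was found for 13.8% of all protein-coding genes, and the median gene had 6 peaks. A peak centre lay inside the gene body for Tob2 and Btg2, as for 23.2% of all protein-coding genes. The Tob2 peak, from 81681793 to 81682181, was centred in the coding part of the last exon, 6769 bp from the TSS, scored 10.5 and held TGTGGT 10 bp from its centre. Most of the other peaks lay at neighbouring promoters. Of the 16 peaks 12 lay within 1 kb of a TSS of another gene, and their distances to that TSS were 4 to 272 bp. The strongest, 44 bp upstream of a TSS of Rangap1, which acts in nuclear transport, scored 49.4. The peak at Xrcc6, a Ku subunit of DNA repair, scored 19.8. The acetyltransferase gene Ep300 had 3 peaks at its TSS, with scores of 9.16, 5.36 and 5.96, and the sterol regulator Srebf2 had a promoter peak that scored 12.7.

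The same number of peaks therefore described unlike surroundings. Within 300 kb of Btg1 lay 0 other protein-coding genes in GENCODE M1, and within 300 kb of Tob2 lay TSS of 21. Of the 3082 protein-coding genes with at least 16 peaks, whose median was 24 such neighbours, only Btg1 and Foxp1 had 0, and Foxp1, a transcription factor gene 341.2 kb long, also had 16 peaks. The nearest protein-coding genes to Btg1 were Eea1, 571.5 kb to the left, and Dcn, 856.8 kb to the right. Of the 16 peaks 1 lay within 1 kb of any TSS at Btg1, 1 of 8 did at Btg2, 0 of 2 at Btg3, 5 of 6 at Tob1 and 12 of 16 at Tob2, and 38.0% of all peaks did. Gene models added later could change this count: a RefSeq annotation of GRCm38.p6 places the lncRNA genes Gm33843 and Gm33897 on either side of Btg1 and lists a protein-coding model, Gm46240, as gene 3 to its right. Their positions were not carried over to mm9, so whether Gm46240 lies within 300 kb of Btg1 was not determined.

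**Figure D2:**
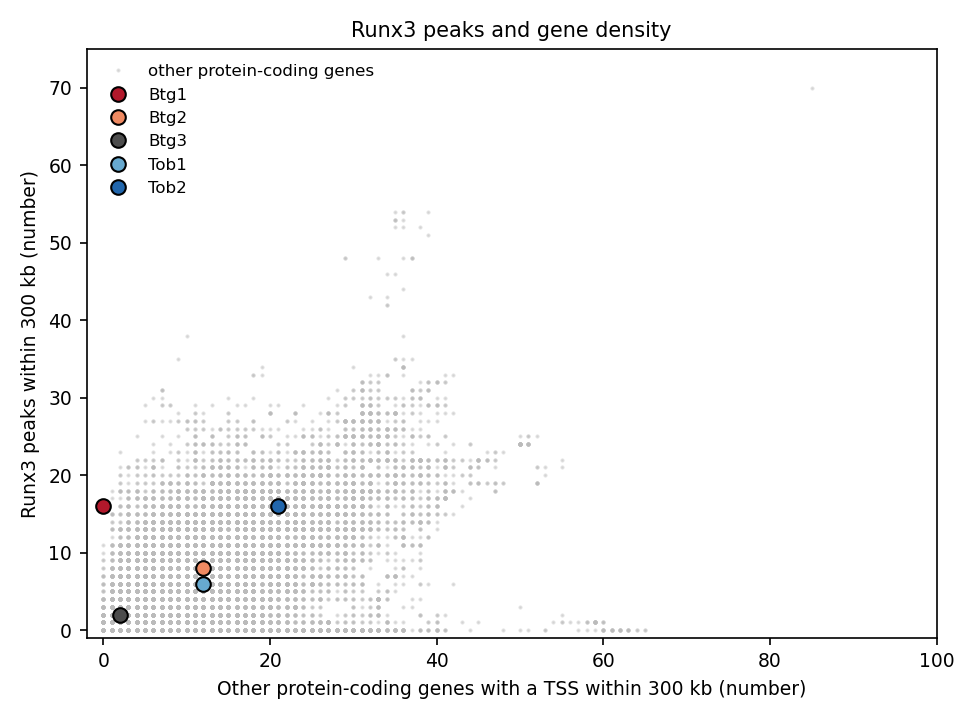
Number of Runx3 peaks within 300 kb of the gene body (vertical axis) against the number of other protein-coding genes with a TSS in the same window (horizontal axis), 1 point for each protein-coding gene in grey and the 5 members in colour. Btg1 and Tob2 both have 16 peaks, with 0 and 21 neighbouring genes, and the point of Foxp1 is hidden under that of Btg1.

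How far Btg1 stood out depended on how peaks were assigned. By the number within 300 kb it ranked 2560 among protein-coding genes, as 1 of 523 genes with this number. When each peak was given to the nearest TSS of a protein-coding gene, all 16 peaks remained with Btg1, 4 of the 8 with Btg2, 1 of the 16 with Tob2 and 0 with Btg3 and Tob1. For Btg1 this outcome was nearly fixed by the spacing of genes. Its nearest protein-coding neighbours lay 571.5 and 856.8 kb away, so a peak within 300 kb could hardly be given to another gene. At least 16 peaks by this rule were found for 5 genes, or 0.0224% of all: Jmjd1c, a histone demethylase family gene, had 17, and Btg1, Fam49b, Id2 and Runx3 itself each had 16. These other genes were named after their values were seen. The place of Btg1 among them rests on the same peaks by which it was picked and on its isolation, and is a description only. In regulatory domains drawn as GREAT does, in which a gene's territory extends to its neighbours, Btg1 received 22 peaks, the most of any gene, and the next gene had 19. Its domain was bounded by the miRNA genes AC131596.1 and AC152946.1, counted as neighbours, and reached from 95627965 to 96317304, a length of 689 kb that only 2.11% of protein-coding genes equalled or exceeded, and by peaks per length of domain Btg1 ranked 3715. The domain took in 6 peaks beyond the 300 kb limit, the strongest of them 342.7 kb upstream of Btg1 with a score of 59.1. In such domains Btg2 had 4 peaks, Tob2 had 1, and Btg3 and Tob1 had 0.

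Other loci had more peaks within 300 kb. Leaving out any gene whose window shared a peak with that of a gene with more peaks already taken, the 5 loci with the most peaks were those named by Gm20388 on chromosome 8 (70 peaks), Brd2 in the MHC on chromosome 17 (54), Runx3 on chromosome 4 (38), Gng7 on chromosome 10 (35) and Serpinf2 on chromosome 11 (34). These windows held 85, 39, 10, 37 and 19 other protein-coding genes in the same order, and the median over all protein-coding genes was 10.

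Counted outward from the gene body, the members separated early. Within 50 kb Btg1 had 7 peaks, Btg2 had 5, Tob2 had 4, and Btg3 and Tob1 had 0, while the median gene had 1. Within 200 kb the numbers were 10, 5, 9, 2 for Btg3 and 1 for Tob1, and the median gene had 4. At the limit of the window, the farthest peak inside it and the nearest outside it lay 285.7 and 341.8 kb from Btg1, with scores of 12.0 and 3.17. They lay 282.9 and 327.0 kb from Btg2 (31.3 and 3.69), 255.6 and 324.2 kb from Tob1 (11.7 and 6.57), and 293.5 and 305.1 kb from Tob2 (5.36 and 29.5). Next to Btg3 the nearest peak outside lay 1276 kb away and scored 20.4.

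**Figure D3:**
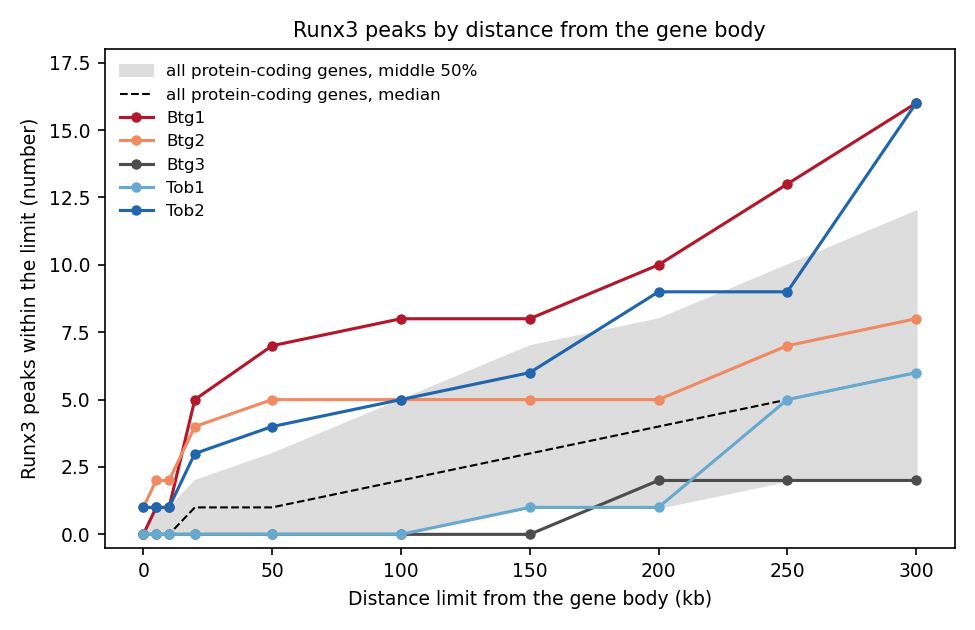
Number of Runx3 peaks (vertical axis) with their centre within each distance from the gene body in kb (horizontal axis) for the 5 members in colour, the median of all protein-coding genes as a dashed line and their middle 50% as a grey band. At 20 kb Btg1, Btg2 and Tob2 lie above the band with 5, 4 and 3 peaks, and Btg3 and Tob1 have 0 peaks up to 100 kb.

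Of the members, Btg1 and Btg2 had a peak centred at most 5 kb from one of their TSS and the other 3 did not, and 31.1% of all protein-coding genes had such a peak. The same count was made for genes that act with BTG and TOB proteins or on the same process. Of the 12 genes of the CCR4-NOT complex 8 had such a peak. The highest scores were 38.1 at Cnot1, the scaffold, 32.3 at Cnot4, a ubiquitin ligase, and 13.4 at the deadenylase Cnot6l. The deadenylases Cnot7 and Cnot6 had no peak this close, whereas Cnot8 had a peak with a score of 9.84. All 6 of the other poly(A) tail factors had a peak, with the highest scores at Pan2 (36.1) and Pan3 (16.5), which form a deadenylase of their own, and at the poly(A)-binding protein gene Pabpc4 (18.95). Of these highest-scoring peaks, those at Cnot4 and Pan2 held TGTGGT 1 time each, and those at Cnot1, Cnot6l, Pan3 and Pabpc4 did not hold it. Of the partners of BTG proteins outside deadenylation, the arginine methyltransferase gene Prmt1 had a peak that scored 4.23 and Hoxb9 had none. The remaining family gene, Btg4, had 0 peaks within 300 kb. The lists here and below are short and were not set beside genes with similar promoters, so a preference of Runx3 for them was not tested.

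Of 16 quiescence and cell cycle inhibitor genes 9 had a peak within 5 kb of a TSS, beside 31.1% of all protein-coding genes. The highest scores were 23.3 at Foxp1, 23.2 at the retinoblastoma family gene Rbl2 and 15.0 at Foxo3. Of the cyclin-dependent kinase inhibitors, Cdkn1a, Cdkn1b and Cdkn2b had peaks that scored 5.81, 5.96 and 8.49, and Cdkn1c, Cdkn2a, Cdkn2c and Cdkn2d had none this close. Of 8 genes of G1 cyclins and their kinases 4 had such a peak. The highest scores were 46.9 at Ccnd3, 45.2 at Ccnd1 and 45.2 at Cdk4, Cdk2 scored 6.57, and Ccnd2, Ccne1, Ccne2 and Cdk6 had none. Whether CD4+ DC express these genes was not analysed here.

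TGTGGT was found in 23 of the 48 peaks, or 47.9%, and in 54.0% of all peaks. The paper reports a higher share of bound regions with the RUNX motif and does not state how a match was counted. Only exact matches of the hexamer were counted here, so a peak without one may still hold a variant of the motif. The 95% interval of the members' share by Wilson's method was 34.5% to 61.7%, and like the intervals that follow it reflects counting error alone. It was found in 7 of the 16 peaks at Btg1, 5 of 8 at Btg2, 1 of 2 at Btg3, 4 of 6 at Tob1 and 6 of 16 at Tob2. Of the 19 member peaks within 1 kb of a TSS 5 held it, or 26.3% (11.8% to 48.8%), and 18 of the 29 others, or 62.1% (44.0% to 77.3%). Over the whole list these shares were 34.4% and 66.1%. In member peaks with the hexamer, its median distance from the peak centre was 23 bp, and in all such peaks 46 bp. At Btg1 the peak 152.2 kb upstream held it 0 bp from the centre, and in the strongest peak it lay 83 bp from the centre. The peak that scored 48.9 held none.

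The other motifs were likewise looked for on either strand over the full width of each peak. TGANTCA, bound by AP-1, was present in 6 of the 16 Btg1 peaks, 0 of the 8 Btg2 peaks and 10 of all 48, or 20.8% (Wilson 95% interval 11.7% to 34.3%), beside 13.2% of the list. TGACGT was present in 4 peaks at Btg1, 2 at Btg2 and 1 at Tob2, which makes 14.6% of the member peaks (7.25% to 27.2%), beside 1663 of the 15121 peaks of the list. GAGGAAGT, a sequence bound by PU.1, was in 6 of the 48 peaks and in 14.6% of the list, and the interferon response element, GAAA and GAAA with any 2 bases between, was in 3 and in 6.48%. The intervals of the shares of these 4 motifs include the share of the list. The degenerate hexamer YGYGGT, of which TGTGGT is 1 form and Y stands for C or T, was in 31 of the member peaks, or 64.6% (50.4% to 76.6%). In the list its share was 76.58%, just above the upper limit of this interval, 76.57%. The intervals treat peaks as independent, although many lie in groups at the same locus, and several motifs were searched. They are therefore no test of a difference from the list.

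Base composition differed between the peaks of Btg1 and those of Tob2. The median share of G and C was 43.8% in the Btg1 peaks and 61.4% in the Tob2 peaks, beside 50.7% over all peaks. Of the Btg1 peaks, the promoter peak had the highest share, 65.6%, and the strongest distal peak the next, 50.8%. The ratio of observed to expected CpG had a median of 0.190 at Btg1, 0.349 at Btg2, 0.410 at Btg3, 0.431 at Tob1 and 0.785 at Tob2. Over the whole list it was 0.754 for peaks within 1 kb of a TSS and 0.225 for all others. Beside the median of the list, 0.316, the Btg1 peaks were lower except for the promoter peak and the strongest distal peak, which had 0.712 and 0.454, and the Tob2 peaks were all higher.

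**Figure D4:**
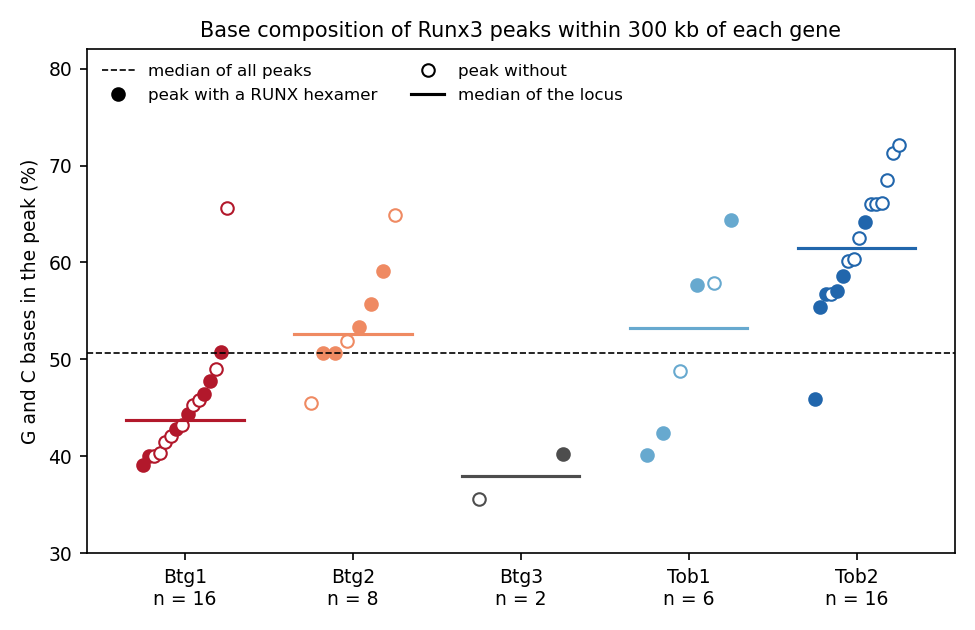
Share of G and C bases (vertical axis, percent) in each Runx3 peak within 300 kb of the 5 genes (horizontal axis), with filled points for peaks that hold TGTGGT and open points for those that do not, a line at the median of each gene and a dashed line at the median of all peaks, 50.7%. At Btg1 the promoter peak, an open point at 65.6%, stands apart from the others, which reach at most 50.8%, and at Tob2 15 of the 16 points are above it.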

How the data were processed

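The deposited file is 1 list of Runx3 peaks, for which the authors called bases with CASAVA 1.8 per the labels, mapped the 50 bp reads with Bowtie to unique places in mm9 and used MACS2 to call peaks, comparing both IP samples with both input samples. The deposited value of each peak is a score written by MACS2, in a unit that is not given in the sources used here, and it served only to rank and compare peaks within the list. Peaks are called strong or weak by this score alone, which is not a measure of occupancy. Over all peaks the score rose with the width of the peak (Spearman rho 0.712). The versions of Bowtie and MACS2, the threshold and the depth of each library are not given in the sources used here either, and pooling removed the replicate values. Pooled peaks cannot show whether both IP samples contribute to a peak.

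Peak centres were placed against GENCODE M1 on NCBIM37, the assembly of mm9, after a check that all peaks end within its chromosomes, and gene models of the same symbol that overlap on a strand were joined. Positions are counted from 1. A member's peaks lay within 300 kb of its body, and GREAT domains held a basal part, 5 kb before and 1 kb after the TSS, extended by at most 1000 kb. Motifs were searched on both strands. Promoter sequences were matched by symbol for all 5 members. Counting was tested on artificial peaks. Python 3.11.15, numpy 2.4.6, scipy 1.17.1 and matplotlib 3.10.9 were used. The members, gene lists and motifs were chosen with earlier results of these data known, and the rule named the 5 members, the 5 densest loci and the 3 genes of each list with the strongest peak. The sequences of some peaks and the peak of 1 neighbouring gene are not reported here.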

Additional observations from a re-analysis of the deposited data

How the results depend on the processing

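Numbers of peaks depended on the distance and on the score. The number of member peaks, 48, became 18 within 100 kb and 16 within 50 kb. It became 20 when only scores from the list median upwards were kept, and 13 from its upper quartile upwards. By the nearest protein-coding TSS it was 21. GREAT domains held 27 peaks, of which 6 at Btg1 lay beyond the 300 kb limit and so were not among the 48. The 16 peaks of Btg1 became 8, 7, 5 and 4 under the first 4 of these settings. The rank of Btg1, 2560, became 1627 within 100 kb, 563 within 50 kb, 6294 with scores from the list median upwards, 2 by the nearest protein-coding TSS and 1 in GREAT domains, a setting chosen after seeing the data. YGYGGT in place of TGTGGT raised the share of member peaks with a match from 47.9% to 64.6%. The other 18 values of these results stayed within 1.5 times the value reported or within its interval: any base of the peak, joined peaks (46 in all and 15 at Btg1) and the longest transcript as gene body moved no number of peaks further than this. At Btg3 and Tob1 the numbers within 50 and 100 kb, by the nearest protein-coding TSS and in GREAT domains were 0. No paired analysis was possible because the peaks were called on pooled samples. Replicates could not be left out for the same reason.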
